A study of Arabidopsis thaliana with 12 samples.

Results

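NUP107, NUP85, SEH1H, NUP93A, NDC1, NUP1, NUP98B and the locus AT3G16310 encode parts of the nuclear pore complex, and their transcripts were followed here in Arabidopsis leaves. The genes were picked by name with earlier results of these data known, and the rule itself uses no measured value: it takes every probe set whose only gene in the annotation of the array is one of these 8. Each gene had 1 probe set, so 8 of the 22746 probe sets tested, of which 13513 have a single gene, are described. The measurements come from 12 Affymetrix ATH1 arrays, a single-colour microarray on which short oligonucleotides report the abundance of each transcript. All plants were in the Col-0 background, 4 weeks old, and either wild type or carriers of the transgene Dex:YFP-CPR5-C, called CPR5-C plants below. Mature leaves received a spray of water or of dexamethasone, a synthetic glucocorticoid, at 50 µM and were taken 24 hours later. The 4 groups, which are wild type or CPR5-C after water or after dexamethasone, held 3 samples each, and the labels call them biological replicates.

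In the transgene, the C-terminal portion of CPR5, fused to the fluorescent protein YFP, is placed under control of dexamethasone, and the study's design treats the fragment as one that interferes with native CPR5. CPR5 is itself a membrane protein of the nuclear pore. How many independent lines were used, and in which cells the promoter is active, is not given in the sources used here, and transcripts of CPR5 and of the transgene were not analysed here. Wild-type leaves after dexamethasone show what the spray does without the transgene, and CPR5-C leaves after water show the line before induction.

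The nuclear pore complex is the channel through which proteins and RNA pass between nucleus and cytoplasm. An outer ring, built from the Y complex, and an inner ring form its scaffold, membrane proteins anchor it in the nuclear envelope, a basket reaches into the nucleus, and proteins rich in phenylalanine-glycine repeats line the channel and bind the transport receptors. In Arabidopsis, subunits of the outer ring, SEH1 among them, are known to be needed for immunity against pathogens, as is the traffic of immune regulators and mRNA through the pore.

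Values are log2 signals that had been centred on the median of each probe set over the 12 arrays, so 0 is the middle of the 12 arrays for that gene and levels cannot be compared between genes. A change is a difference of group means in log2 units with its standard error (SE), and a gene was called changed at a Benjamini-Hochberg adjusted p under 0.05 over all probe sets in limma's moderated test. The 3 arrays of CPR5-C leaves after dexamethasone stood apart from the rest: the standard deviation (SD) of all centred values was 0.68 to 0.69 on these 3 and 0.13 to 0.23 on the other 9. In bulk leaf RNA, fewer cells of a type and less of a transcript per cell cannot be told apart. The number of arrays limits the precision: SEs of the members' changes between 2 groups lay between 0.07 and 0.12.

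After dexamethasone in CPR5-C plants, 3 of the 8 genes were called higher than after water and 2 were called lower, against 23.3% higher and 24.6% lower among all probe sets. NUP98B, NUP93A and SEH1H rose, NUP107 and NUP85 fell on the deposited scale and had positive values that did not pass when arrays were scaled to spike controls, and NDC1, AT3G16310 and NUP1 did not pass. With quantile normalization, which gives all arrays the same spread, NUP93A alone of the 8 was called. The median change of the 8 genes was 0.12 and their median size was 0.23, while over all probe sets the median was -0.02 and the median size 0.20. Set against that background, the counts are no mark of the 8 genes as a set. In wild-type plants the same spray gave a single call, NDC1.

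**Figure D1:**
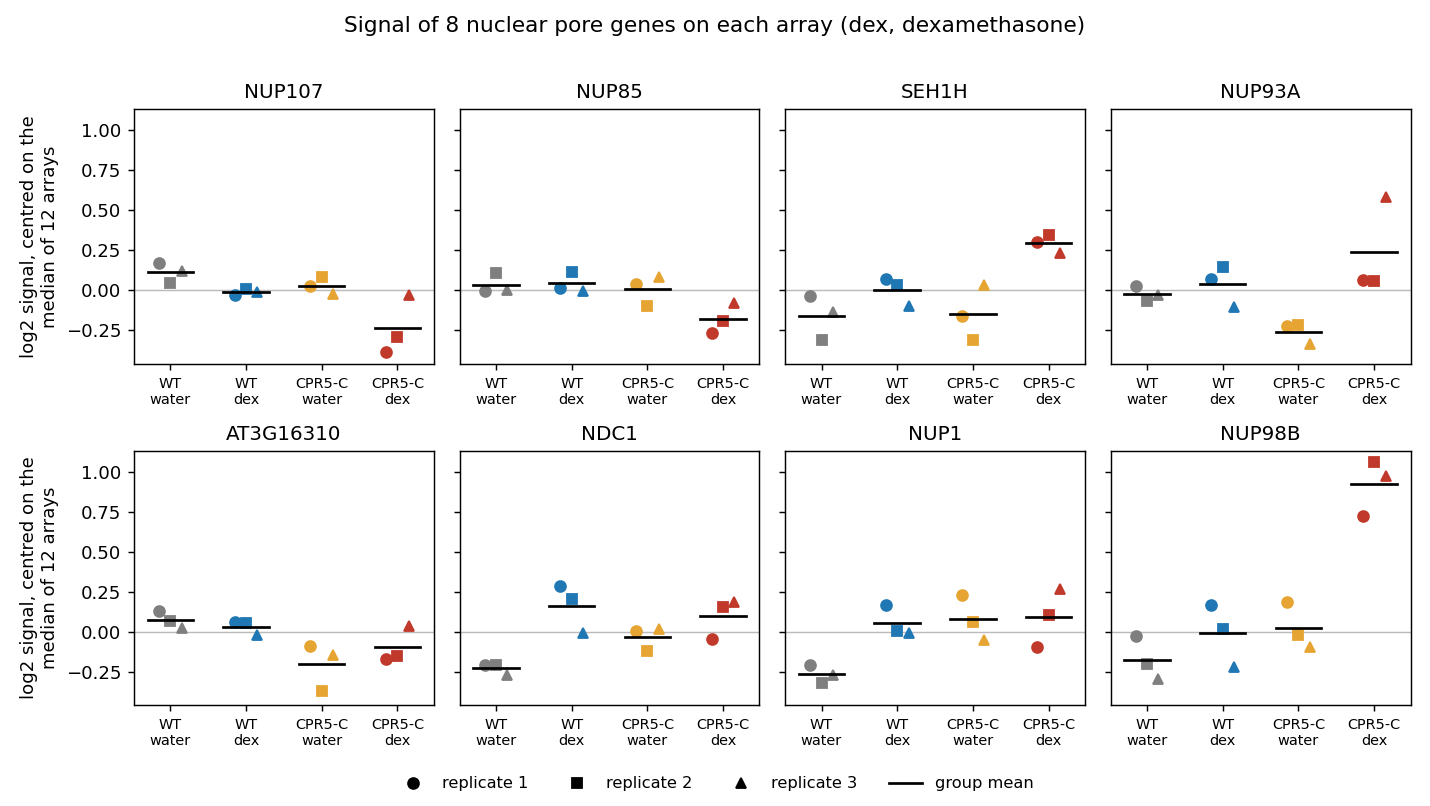
Log2 signal of each gene, centred on the median of the 12 arrays, for the 4 groups (WT, wild type; dex, dexamethasone), with 1 point per array, shapes for replicate numbers and a bar for the group mean. NUP98B stands out with 0.73 to 1.06 on the CPR5-C dexamethasone arrays, above its other 9 arrays, and NUP93A has 1 high array, at 0.59, in that group.

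NUP98B, a nucleoporin with phenylalanine-glycine repeats of the kind that bind transport receptors, gave the largest change among the 8 genes in CPR5-C plants on the deposited, median-centred and spike-scaled values, but with quantile normalization NUP93A (0.70), SEH1H (0.51) and AT3G16310 (0.42) exceeded it (0.36). Its signal was -0.03, -0.20 and -0.29 after water and 0.17, 0.02 and -0.22 after dexamethasone in wild type. In CPR5-C plants it was 0.19, -0.02 and -0.09 after water and 0.73, 1.06 and 0.98 after dexamethasone. All 3 induced arrays lay above the other 9, while the other 3 groups overlapped one another, with means of -0.17 ± 0.14, -0.01 ± 0.19 and 0.02 ± 0.15 (SD, n = 3) against 0.92 ± 0.17. The change in CPR5-C plants was 0.90 (SE 0.12, 95% confidence interval 0.65 to 1.14, adjusted p = 1.1e-05), a 1.86-fold rise. Compared with wild type after the same spray, NUP98B was 1.91-fold higher, a difference of 0.93 (SE 0.12, adjusted p = 7.63e-06). The wild-type response was 0.16 (adjusted p = 0.471), and the difference between the 2 responses was 0.73 (SE 0.16, interval 0.38 to 1.08, adjusted p = 0.00221). It was the only one of the 8 genes whose response was called different between the genotypes on the deposited scale, where 18.1% of all probe sets were called in the positive and 20.4% in the negative direction. Among all probe sets, 87.2% had a smaller change than NUP98B in CPR5-C plants, counting changes in either direction. Quantile normalization left a change of 0.36 that did not pass (adjusted p = 0.178), a difference of 0.45 from wild type after dexamethasone (adjusted p = 0.101) and a difference of 0.16 between the responses (adjusted p = 0.741). Run on centred values, that setting narrows the wide induced arrays and widens the other 9 by construction. The lost calls and the changed order of genes cannot be told apart from that effect.

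NUP93A, a scaffold protein of the inner ring, was also higher after dexamethasone in CPR5-C plants, but its size rested partly on 1 array. The signal was 0.03, -0.07 and -0.03 after water and 0.07, 0.15 and -0.10 after dexamethasone in wild type, and -0.22, -0.22 and -0.33 after water in CPR5-C plants. The induced arrays read 0.07, 0.06 and 0.59, all above the CPR5-C water arrays and overlapping with wild type after dexamethasone. The change was 0.49 (SE 0.12, interval 0.24 to 0.75, adjusted p = 0.00266), or 1.41-fold, and it was 0.32 without replicate 3 of the induced group, still called. Against wild type after dexamethasone the difference was 0.20 (SE 0.12, adjusted p = 0.196), and without that replicate it was 0.02. The CPR5-C water arrays were the lowest of the 4 groups, at -0.26 ± 0.06, and lay below all wild-type water arrays. This difference was -0.23 and did not pass (adjusted p = 0.302). With quantile normalization, which widens the water arrays by construction, it was -0.57 and passed (adjusted p = 0.0171). The response in CPR5-C plants exceeded that in wild type by 0.43 (interval 0.07 to 0.79, adjusted p = 0.0546), which did not pass. It passed with spike scaling (1.02, adjusted p = 6.53e-05) and with quantile normalization (0.62, adjusted p = 0.038), where NUP93A in place of NUP98B was the only one of the 8 called. NUP93A had the widest spread within groups of the 8 genes, a pooled SD of 0.17, and 89.1% of probe sets had a smaller one.

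The other inner-ring locus, AT3G16310, followed a different order. Its signal was 0.13, 0.07 and 0.02 after water and 0.06, 0.05 and -0.02 after dexamethasone in wild type, -0.09, -0.37 and -0.14 after water in CPR5-C plants, and -0.17, -0.15 and 0.04 in induced CPR5-C plants. The CPR5-C water arrays lay below every wild-type array, while the induced arrays overlapped with those of wild type after the same spray. The difference from wild type after water was -0.28 (SE 0.08, interval -0.45 to -0.10, adjusted p = 0.0619), which did not pass. With quantile normalization, which widens the water arrays by construction, it was -0.58 (adjusted p = 0.0677). The change in CPR5-C plants was 0.11 (interval -0.07 to 0.29, adjusted p = 0.317), and in wild type it was -0.04 (adjusted p = 0.832).

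The 3 measured genes of the outer ring in this set did not move together. SEH1H, a small Y-complex subunit with a beta-propeller fold, read -0.04, -0.31 and -0.14 after water and 0.07, 0.04 and -0.10 after dexamethasone in wild type, and -0.16, -0.31 and 0.04 after water in CPR5-C plants. On the induced arrays it read 0.30, 0.35 and 0.23, above the other 9. It rose by 0.44 (SE 0.09, interval 0.24 to 0.64, adjusted p = 0.00115), or 1.35-fold, in CPR5-C plants, and with quantile normalization the change was 0.51 and did not pass (adjusted p = 0.0541). It was 1.22-fold higher than in wild type after dexamethasone, a difference of 0.29 (SE 0.09, adjusted p = 0.0186), a call that was lost without wild-type dexamethasone replicate 3 (adjusted p = 0.0752) or CPR5-C dexamethasone replicate 2 (adjusted p = 0.063), and with quantile normalization (0.16, adjusted p = 0.581). The wild-type response was 0.16 (adjusted p = 0.353), and the 2 responses differed by 0.27 (interval -0.01 to 0.56, adjusted p = 0.126).

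NUP107, a core subunit of the Y complex, read 0.17, 0.05 and 0.12 after water and -0.03, 0.01 and -0.01 after dexamethasone in wild type, and 0.03, 0.08 and -0.02 after water in CPR5-C plants. The induced arrays read -0.39, -0.29 and -0.03, below every water array of either genotype. Replicate 3 of that group, at -0.03, lay close to the lowest CPR5-C water array and level with the lowest wild-type dexamethasone array. The SD was 0.19 on the induced arrays and 0.02 to 0.06 in the other groups, while the fit assumes a shared spread. NUP107 fell by 0.27 in CPR5-C plants (SE 0.08, adjusted p = 0.0157), or 1.20-fold, but with arrays scaled to spike controls its value was 0.15 and did not pass. The call was lost without induced replicate 1 (-0.19, adjusted p = 0.0866) or 2 (-0.24, adjusted p = 0.0572), or without CPR5-C water replicate 2 (adjusted p = 0.0578), and with quantile normalization (-0.15, adjusted p = 0.247). In wild type the dexamethasone arrays also lay below the water arrays, with a change of -0.12 (interval -0.30 to 0.05, adjusted p = 0.442), and the 2 responses differed by -0.14 (adjusted p = 0.396).

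NUP85, another Y-complex subunit, varied least of the 8 genes, with a range of 0.38 over the 12 arrays against a median range of 0.54 over all probe sets. In wild type it read -0.00, 0.11 and 0.00 after water and 0.02, 0.12 and -0.01 after dexamethasone. In CPR5-C plants it read 0.04, -0.10 and 0.08 after water and -0.27, -0.19 and -0.08 after dexamethasone. The induced arrays lay below all wild-type arrays, and replicate 3 of them overlapped with CPR5-C water replicate 2. The change in CPR5-C plants, -0.19 (SE 0.07, interval -0.35 to -0.03), passed by the narrowest margin (adjusted p = 0.0499) and was called in 3 of the 12 fits that each left out an array, those without wild-type water replicate 2, CPR5-C water replicate 2 or induced replicate 3. Against wild type after dexamethasone NUP85 was 1.17-fold lower, a difference of -0.22 (SE 0.07, adjusted p = 0.0223), lost without wild-type dexamethasone replicate 2 (adjusted p = 0.0953) or induced replicate 1 (adjusted p = 0.0969) or 2 (adjusted p = 0.0564). With quantile normalization neither passed, at -0.09 (adjusted p = 0.592) and -0.17 (adjusted p = 0.248). Both values turned positive without passing, at 0.22 and 0.30, when arrays were scaled to the spike controls.

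**Figure D2:**
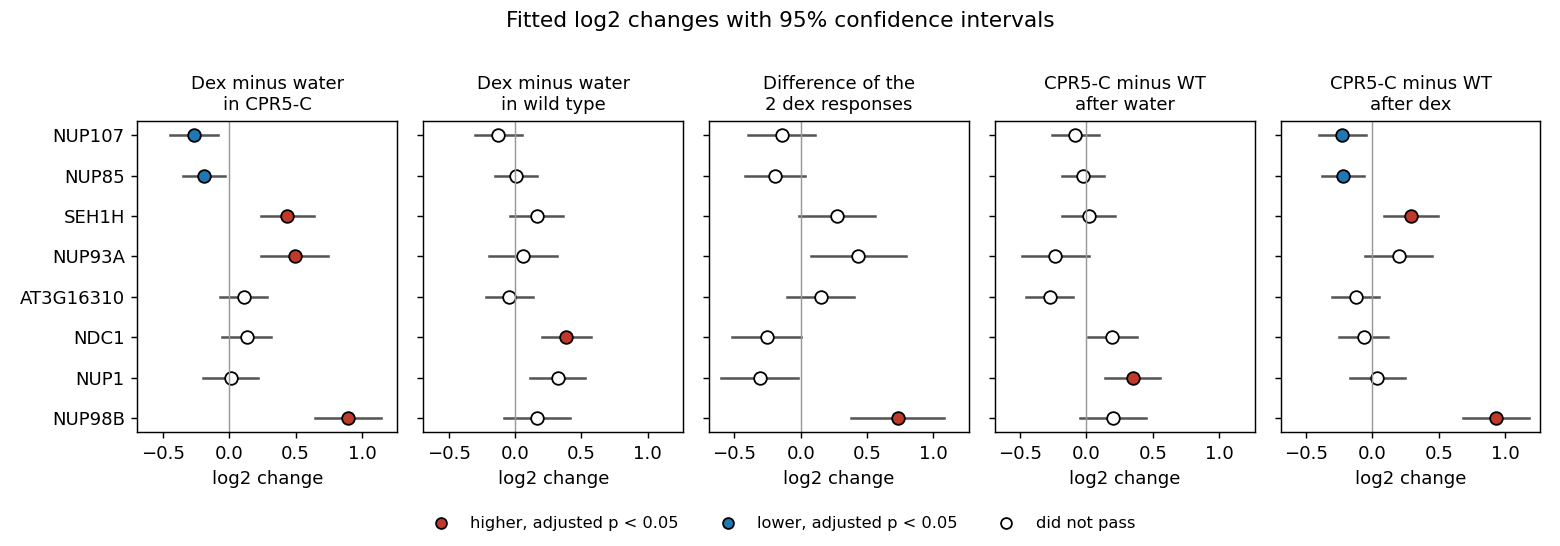
Fitted log2 changes (points) with 95% confidence intervals (bars) of the 8 genes in the 5 comparisons; filled points passed adjusted p under 0.05. NUP98B was called in 3 panels, and the values of NUP107 and NUP85 called lower here turn positive without passing when arrays are scaled to poly-A spike controls.

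Median centring and spike scaling shift all genes of an array by the same amount, so differences between genes on the same array do not depend on them, whereas quantile normalization can change them. The pairs below were chosen after the values had been seen and are given without a test. SEH1H minus NUP107 was -0.28 ± 0.08 and 0.01 ± 0.10 (SD, n = 3) in wild type after water and dexamethasone, and -0.17 ± 0.22 and 0.53 ± 0.23 in CPR5-C plants. SEH1H minus NUP85 was -0.20 ± 0.20, -0.04 ± 0.08, -0.15 ± 0.09 and 0.47 ± 0.14 in the same order. These differences between subunits of the same ring were highest on the induced arrays for both pairs. NUP98B minus NUP107 was -0.29 ± 0.11, -0.00 ± 0.20, -0.01 ± 0.14 and 1.16 ± 0.18, and NUP98B minus SEH1H was -0.01 ± 0.13, -0.01 ± 0.11, 0.17 ± 0.26 and 0.63 ± 0.17. On the deposited scale NUP98B thus stood higher relative to both outer-ring genes on the induced arrays than in the other 3 groups. From water to dexamethasone in CPR5-C plants, NUP98B minus SEH1H moved by 0.46 on that scale and by -0.14 with quantile normalization. NUP98B minus NUP107 moved by 1.16 and 0.51, SEH1H minus NUP107 by 0.70 and 0.66, and SEH1H minus NUP85 by 0.63 and 0.59.

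In wild-type plants, dexamethasone was followed by a called rise of NDC1 and of no other of the 8 genes, against 5.07% of probe sets called higher and 4.01% lower. At an unadjusted p under 0.05, limma gave 2 of the 8, NDC1 and NUP1, and 21.1% of all probe sets. The median change was 0.11 and the median size 0.14, compared with 0.00 and 0.09 over all probe sets.

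NDC1, a transmembrane nucleoporin that anchors the pore in the envelope, read -0.20, -0.21 and -0.27 after water and 0.29, 0.20 and -0.01 after dexamethasone in wild type. In CPR5-C plants it read 0.01, -0.12 and 0.02 after water and -0.04, 0.16 and 0.19 after dexamethasone. The wild-type water arrays were lower than the other 9 arrays, which overlapped. The wild-type change was 0.39 (SE 0.09, interval 0.20 to 0.57, adjusted p = 0.00974), or 1.31-fold, and 94.2% of probe sets had a smaller one. It was 0.32 without wild-type dexamethasone replicate 1 (adjusted p = 0.0541), and with spike scaling it was 0.22 (adjusted p = 0.443). In CPR5-C plants the change was 0.13 (SE 0.09, adjusted p = 0.240), and the 2 responses differed by -0.26 (interval -0.52 to 0.00, adjusted p = 0.118). NDC1 was 0.19 higher in CPR5-C than in wild-type plants after water, which did not pass (adjusted p = 0.224).

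NUP1, a plant protein of the nuclear basket that is also known as a determinant of nuclear shape, showed the same feature of low wild-type water arrays. They read -0.21, -0.32 and -0.27, and the wild-type dexamethasone arrays read 0.17, 0.01 and -0.01. CPR5-C plants gave 0.23, 0.06 and -0.05 after water and -0.09, 0.11 and 0.27 after dexamethasone. All wild-type water arrays lay below the other 9 arrays, and the means of the other 3 groups, 0.06 ± 0.10, 0.08 ± 0.14 and 0.09 ± 0.18, did not differ beyond their spread. The wild-type change was 0.32 (SE 0.10, interval 0.12 to 0.53, adjusted p = 0.0527) and did not pass. It passed with only the wild-type arrays in the fit, a trended variance, array weights or quantile normalization (adjusted p from 0.0292 to 0.0495). With spike scaling it was 0.15 and did not pass, and it passed in 3 of the 12 fits that each left out an array. In CPR5-C plants the change was 0.01 (interval -0.19 to 0.22, adjusted p = 0.939), and 3.96% of probe sets had a smaller one. The difference between the 2 responses was -0.31 (adjusted p = 0.0908).

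After water, CPR5-C and wild-type plants differed at 1 of the 8 genes, NUP1, against 4.25% of probe sets called higher and 2.83% lower. NUP1 was higher in CPR5-C plants by 0.35 (SE 0.10, interval 0.14 to 0.55, adjusted p = 0.0439), or 1.27-fold. The comparison shares the wild-type water arrays with the wild-type response, so the low values of those 3 arrays enter both. The call held in 4 of the 12 fits that each left out an array, those without wild-type dexamethasone replicate 1, CPR5-C water replicate 3 or induced replicate 1 or 3, and with spike scaling the difference was 0.28 (adjusted p = 0.810). At an unadjusted p under 0.05, limma gave 3 of the 8, NUP1, AT3G16310 and NDC1, and 19.7% of all probe sets. The smallest differences were those of SEH1H, 0.02 (interval -0.18 to 0.22), and NUP85, -0.03 (interval -0.19 to 0.13), while NUP98B differed by 0.20 (adjusted p = 0.387) and NUP107 by -0.08 (adjusted p = 0.665).

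After dexamethasone, CPR5-C and wild-type plants differed at 4 of the 8 genes, with NUP98B and SEH1H higher and NUP107 and NUP85 lower, the latter pair turning positive without passing under spike scaling, and with quantile normalization 0 of the 8 were called. Among all probe sets, 23.3% were higher and 24.1% lower. NUP107 was lower by 1.17-fold, a difference of -0.23 (SE 0.08, adjusted p = 0.0370), with arrays that overlapped and a call that held in 7 of the 12 fits that each left out an array. It was lost without any 1 of the 3 wild-type dexamethasone arrays, or without induced replicate 1 (-0.15, adjusted p = 0.179) or 2 (adjusted p = 0.114). NDC1 and NUP1, for which the wild-type water arrays were low, differed by -0.06 (interval -0.25 to 0.12) and 0.04 (interval -0.17 to 0.24) between the genotypes after dexamethasone. AT3G16310 differed by -0.12 (interval -0.30 to 0.05, adjusted p = 0.251).

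**Figure D3:**
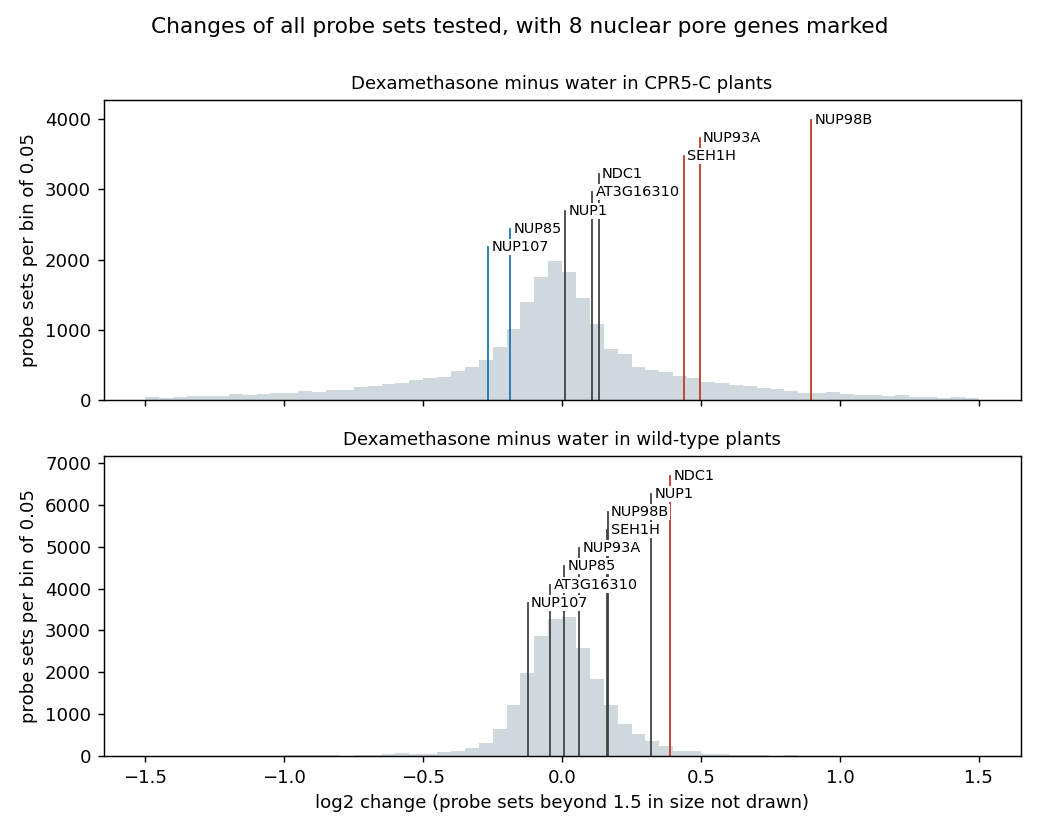
Histograms of the log2 change after dexamethasone over all probe sets tested, in bins of 0.05, for CPR5-C plants (top) and wild-type plants (bottom), with the 8 genes marked (red, called higher; blue, called lower, and positive without passing under spike scaling; dark grey, did not pass; line heights only separate the labels). The distribution is broader in CPR5-C plants, where NUP98B lies at 0.90 and the other 7 between -0.27 and 0.49.

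As deposited, with each array centred on its median and with quantile normalization, the changes of the 8 genes in CPR5-C plants had both signs. Poly-A spikes are bacterial transcripts meant to be added to each RNA sample before labelling, and the array carries control probe sets for them. Centred values cannot show whether the spikes were added here. Scaled to these control probe sets, the median change of all probe sets in CPR5-C plants moved from -0.02 to 0.39, and 87.8% of calls were higher, compared with 48.7%. The mean centred spike signal was -0.46, -0.59 and -0.09 on the 3 induced arrays and -0.14 to 0.27 on the other 9. On that scale all 8 genes had positive values, from 0.15 for NUP107 to 1.31 for NUP98B, and NDC1, AT3G16310 and NUP1 passed, at 0.54, 0.52 and 0.42. Relative to the shifted median, NUP107 was at -0.25, NUP85 at -0.17, SEH1H at 0.45, NUP93A at 0.51 and NUP98B at 0.91. The order of the genes is the same on both scales by construction. Whether the spikes or the bulk of the probe sets is the better reference was not tested.

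**Figure D4:**
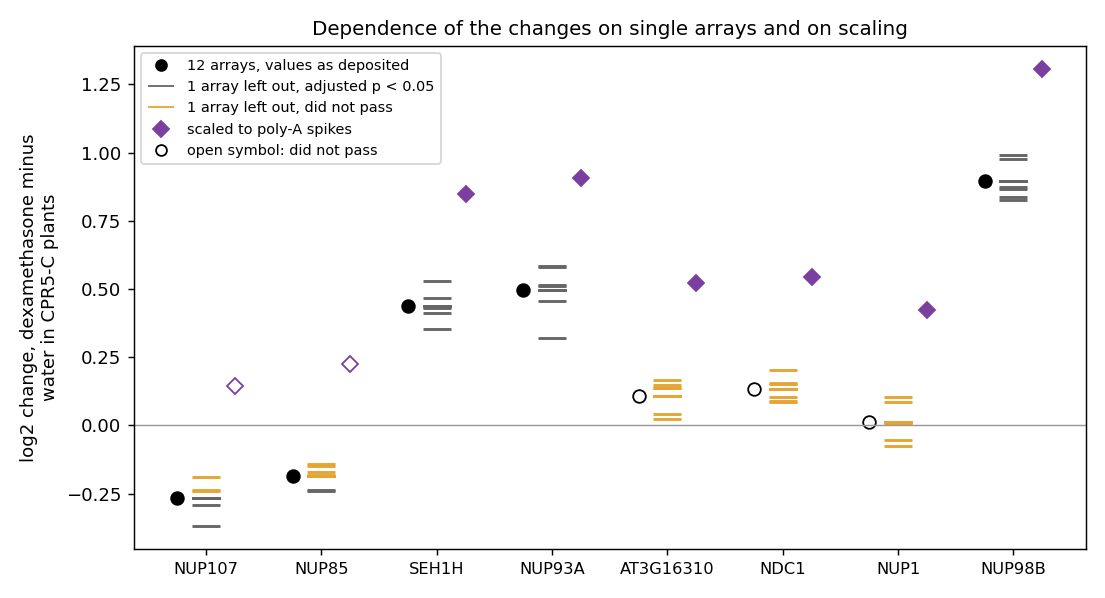
Log2 change after dexamethasone in CPR5-C plants for each gene with all 12 arrays (black circles), with each array left out in turn (dashes, grey where called and yellow where not) and with arrays scaled to poly-A spikes (diamonds); open symbols did not pass. NUP98B ranged from 0.83 to 0.99 and SEH1H from 0.35 to 0.53 with an array left out, NUP93A from 0.32 to 0.58, and NUP107 and NUP85 lie below 0 with circles and above it with diamonds.

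Other nuclear pore genes were counted to place these 8 among their partners. Of 26 further loci listed as pore genes, 12 were measured by a named probe set. In CPR5-C plants 3 of the 12 rose after dexamethasone and none was called lower, with a median of 0.11 and a range from -0.19 for NUP155, an inner-ring scaffold gene (adjusted p = 0.123), to 1.03. Over all probe sets 23.3% were called higher and 24.6% lower, and the share of the 12 that rose is near the first of these. AT3G15970, from the basket part of the list, read 1.03, 0.92 and 1.01 on the induced arrays and -0.18 to 0.14 on the other 9, a 2.04-fold rise (1.03, SE 0.08, adjusted p = 3.94e-08). AT2G30050 and AT3G01340, both from the outer-ring part of the list, rose 1.67-fold (0.74, SE 0.07, adjusted p = 5.78e-07) and 1.56-fold (0.64, SE 0.06, adjusted p = 3.73e-07). For all 3, which were named for their small p, the induced arrays lay above the other 9. The share of all probe sets with such a separation is not given here, so it is no further mark of these genes. The same 3 were higher than in wild type after dexamethasone, by 0.98, 0.66 and 0.62, and differed in response between the genotypes, by 0.99, 0.80 and 0.64. None of the 12 was called for dexamethasone in wild type or between genotypes after water, by limma; the smallest adjusted p was 0.367 (AT1G75340, 0.12) and 0.221 (AT3G56900, -0.25). At an unadjusted p under 0.05 in limma, 0 of the 12 were counted in wild type, against 21.1% of all probe sets, and 1, AT3G56900, after water, against 19.7%. With spike scaling, 10 of the 12 were called in CPR5-C plants, where 66.9% of all probe sets were.

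Genes for carriers that pass through the pore were sparsely measured. Of 19 listed nuclear transport receptors, 4 had a named probe set, and 2 of them rose in CPR5-C plants. Over all probe sets 23.3% were called higher there, and 4 genes are too few for a result about the receptors as a set. XPO1B, an exportin of the family that carries proteins with nuclear export signals out of the nucleus, rose 2.10-fold (1.07, SE 0.07, adjusted p = 7.26e-09). Its wild-type response was -0.02 (adjusted p = 0.932), and the responses differed by 1.09 (adjusted p = 5.51e-07). AT2G46520 rose by 0.36 (adjusted p = 0.000562), and AT4G27640 and PSD, an exportin gene of the tRNA export family, had changes of 0.02 and -0.02 that did not pass. Of 11 listed genes of the Ran cycle, which gives nuclear transport its direction, only AT2G30060 was measured. It rose 3.51-fold in CPR5-C plants (1.81, SE 0.07, adjusted p = 3.33e-11), against 0.12 in wild type (adjusted p = 0.378).

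Of 9 listed mRNA export genes 5 were measured, and in CPR5-C plants 2 rose and 1 fell. Among all probe sets, 23.3% were called higher and 24.6% lower in that comparison, so the counts are no mark of these 5 genes. THO1, a subunit of the THO complex that couples transcription to mRNA export, fell by 0.66 (SE 0.07, adjusted p = 1.86e-06), and with spike scaling its value was -0.24 and did not pass (adjusted p = 0.145). AT5G59950 rose by 0.36 (adjusted p = 0.00133; 0.616 with quantile normalization) and AT1G66260 by 0.25 (adjusted p = 0.00483). In wild type, AT1G66260 fell by 0.27 (SE 0.07, adjusted p = 0.0164), a call that was lost without wild-type water replicate 2 (adjusted p = 0.0724) or wild-type dexamethasone replicate 1 (adjusted p = 0.0601), and the responses of the 2 genotypes differed by 0.53 (adjusted p = 0.000332). Another THO gene, TEX1, had a change of -0.10 in CPR5-C plants (adjusted p = 0.302). None of 12 listed genes of the nuclear envelope and lamina-like proteins was measured by a named probe set.

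**Figure D5:**
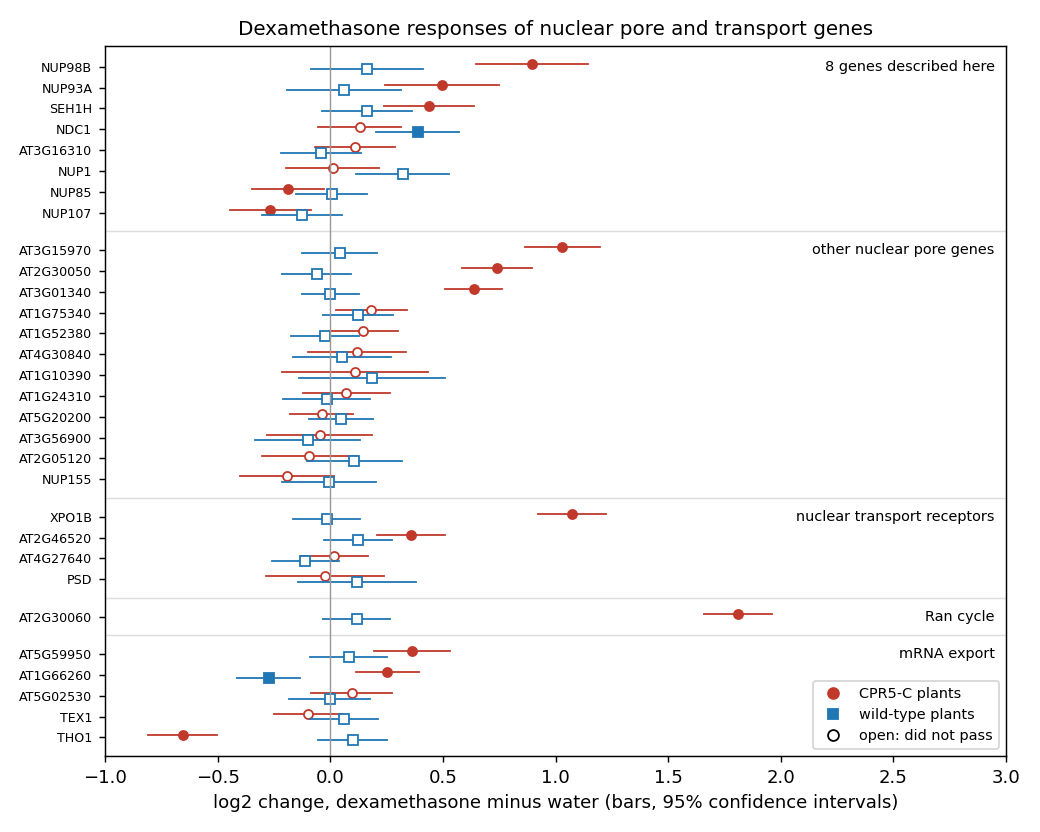
Log2 change after dexamethasone in CPR5-C plants (red circles) and wild-type plants (blue squares) for the 8 genes and the measured members of 4 other lists, with 95% confidence intervals; filled symbols passed adjusted p under 0.05. Among the other genes, AT2G30060 at 1.81, XPO1B at 1.07 and AT3G15970 at 1.03 are highest in CPR5-C plants, and THO1 at -0.66 is lowest, though with spike scaling THO1 did not pass, and NUP107 and NUP85 turn positive.

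For each of the 8 genes, the probe sets with the most similar values over the 12 arrays were taken by the root mean square difference in log2 units. NUP98B was nearest to AT3G46540 and TRM15, both at 0.116, where the median over all single-gene probe sets was 0.507. NUP93A was nearest to OTP81 (0.101) and NRPE7 (0.106), SEH1H to AT4G30390 (0.0639) and AT1G78150 (0.0671), and NUP107 to AT3G56130 (0.0656) and AT1G35740 (0.0658). NUP85 was nearest to AT3G58180 (0.0376) and AT3G44740 (0.0393), and AT3G16310 to AT5G19510 (0.067) and AT2G04540 (0.069). NDC1 was nearest to AT1G12330 (0.0802) and AT3G50690 (0.0927), and NUP1 to FAC1 (0.0744) and AT3G10810 (0.0994). None of these 16 neighbours is among the 8 genes or the lists above. Those genes are a small part of the 13513 single-gene probe sets, so this says little about likeness among pore genes.

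Markers of leaf cell types also moved on the induced arrays, and control probe sets for RNA quality were read beside them. All 3 measured guard cell markers of 5 listed fell in CPR5-C plants, with changes of -3.06 (AT1G22690), -0.32 (AT2G05790) and -0.28 (FMA). Over all probe sets, 24.6% were called lower there. Spike scaling shifts every change in this comparison by the same amount, and the median of all probe sets from -0.02 to 0.39. The falls of AT2G05790 and FMA are smaller than that shift, so both turn positive on that scale, while AT1G22690 stays negative. Against wild type after dexamethasone, AT1G22690 (-2.83) and AT2G05790 (-0.46) were called lower, and FMA did not pass (-0.15, adjusted p = 0.172 in limma). Here spike scaling moves the median from 0.01 to 0.53, a shift larger than the fall of AT2G05790. AT1G22690 also fell in wild type, with a change of -0.61 (adjusted p = 0.0033). SWEET11, the 1 measured of 5 phloem and vasculature markers, rose by 0.51 (adjusted p = 8.44e-06). None of the listed markers of mesophyll, epidermis, trichomes, root or dividing cells was measured by a named probe set, and centred values give no level, so the leaf label could not be checked against its markers. The 3′ minus 5′ difference of the actin control probe sets was -0.26, -0.16 and -0.17 on the induced arrays and -0.06 to 0.14 on the other 9. For GAPDH it was -0.09, 0.20 and 0.09 against -0.09 to 0.08, and for ubiquitin -0.196, -0.054 and -0.121 against -0.047 to 0.037. Actin and ubiquitin thus lay below the other 9 arrays on each of the 3 induced arrays. GAPDH did not share that shift. The part of these shifts in the changes of the pore genes was not tested.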

How the data were processed

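Transcripts were measured on 12 Affymetrix ATH1 arrays, 3 in each of the 4 groups that the labels give. The deposited log2 values came from RMA, according to the submitters' processing notes; its version is not given in the sources used here, and the file does not state the log base. The authors had centred each probe set: the median over the 12 arrays was 0 (within 1e-06) for all 22810 probe sets. Levels, detection calls, background correction and a filter on dim probes could therefore not be examined.

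Without the 64 controls, 22746 probe sets entered the tests. The platform annotation gave a single gene for 13513, several for 503 and none for 8730; symbols were updated through gene identifiers (13436 matched) in a TAIR10.1 gene table, whose coordinates were not used. Gene names of the pore genes that the table lists by locus alone came with the choice of genes. No sequences were used here.

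All 5 comparisons were contrasts of one limma 3.58.1 fit (R 4.3.3, lmFit and eBayes, a mean per group, 8 residual and 5.79 prior degrees of freedom), two-sided, with Benjamini-Hochberg adjustment over all probe sets. The fit was tested on simulated data. P-values measure the spread between samples that the labels call biological replicates. The 8 genes are named in every comparison, up to 3 of each other list with the smallest p, and the 2 nearest probe sets of each gene; a few further listed genes were named after their values were seen. The members and lists were chosen with earlier results of these data known. Figures were drawn with matplotlib 3.10.9.

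Alternatives were median centring, poly-A spike scaling and quantile normalization of arrays, all run on the centred values. Others were fits with only the groups compared, a trended robust variance, array weights, a replicate block, single-gene probe sets only, an adjusted p under 0.01, and each array left out. Leaving out all 3 wild-type water arrays was added after seeing the data.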

Additional observations from a re-analysis of the deposited data

Results flagged for a closer look

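By the interaction test in limma, 8 of the genes followed responded differently to dexamethasone in CPR5-C plants than in wild type. Over all probe sets, 38.5% were called in this test. The calls were 1 of the 8 pore genes, 3 of 12 other pore genes, 1 of 4 transport receptors and the 1 Ran cycle gene. Of 5 mRNA export genes, 1 was called higher and 1 lower. NUP98B was the 1 called of the 8 pore genes, with a difference of 0.73 (adjusted p = 0.00221). Among the other pore genes it was 0.99 for AT3G15970 (adjusted p = 4.69e-06), 0.80 for AT2G30050 (adjusted p = 1.66e-05) and 0.64 for AT3G01340 (adjusted p = 2.38e-05). XPO1B differed by 1.09 (adjusted p = 5.51e-07) and AT2G30060 by 1.69 (adjusted p = 7.04e-09). THO1 differed by -0.76 (adjusted p = 2.61e-05) and AT1G66260 by 0.53 (adjusted p = 0.000332). With quantile normalization the difference did not pass for NUP98B (0.16, adjusted p = 0.741) or AT3G15970 (0.45, adjusted p = 0.0681), and with spike scaling it did not pass for THO1 (-0.17, adjusted p = 0.476). Across all probe sets 18.1% were called in the positive and 20.4% in the negative direction. Groups of 3 arrays are too small for a test of single outlying samples, and none was run.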

How the results depend on the processing

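When the poly-A spikes set the scale of each array, 15 of the 40 member changes took the opposite sign, 6 of them with a call on 1 of the scales and 9 that passed on neither. Of the 6, NUP107 and NUP85 had 0.15 and 0.22 after dexamethasone in CPR5-C plants, and in CPR5-C against wild type after dexamethasone AT3G16310 had 0.40, NDC1 0.46, NUP107 0.30 and NUP85 0.30, of which AT3G16310 and NDC1 passed. The 9 include the difference of responses for NUP107 (0.44), NUP85 (0.39), NDC1 (0.33) and NUP1 (0.27). That scaling moved the median of all probe sets to 0.39 for dexamethasone in CPR5-C plants, -0.17 in wild type, -0.06 between genotypes after water, 0.53 after dexamethasone and 0.59 for the difference of responses. The share of calls that were higher became 87.8%, 13.3%, 34.0%, 91.7% and 93.3%, from 48.7%, 55.9%, 60.1%, 49.2% and 47.1%. It left 987 calls of 2065 in wild type and 462 of 1610 after water, and gave 18423 against 10786 after dexamethasone and 15511 against 8755 for the difference of responses. Quantile normalization, which evens out the spread of arrays by construction, left 5557 calls of 10895 in CPR5-C plants, 5110 after dexamethasone and 3538 for the difference of responses. At an adjusted p under 0.01, 1152 remained in wild type and 783 after water.

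Of the 8 genes, 5 were called in CPR5-C plants, 1 with quantile normalization (NUP93A), 3 at an adjusted p under 0.01 and 3 to 5 with an array left out. In wild type 1 was called, 0 with spike scaling, 2 with quantile normalization, only the groups compared, trended variance or array weights, and 0 to 2 with an array left out. After water 1 was called, 0 with spike scaling, the replicate block, single-gene probe sets or an adjusted p under 0.01, 2 with quantile normalization or array weights, and 0 to 2 with an array left out. After dexamethasone 4 were called, 0 with quantile normalization, 1 at an adjusted p under 0.01 and 1 to 4 with an array left out. For the difference of responses 1 was called, 4 with spike scaling, 1 with quantile normalization (NUP93A, not NUP98B), 2 with array weights and 1 to 2 with an array left out. With an array left out, 900 to 1665 probe sets were called after water, with 900, 922 and 1019 without CPR5-C water replicate 3, CPR5-C water replicate 2 and wild-type water replicate 3. The difference of responses gained a call for NUP93A without wild-type dexamethasone replicate 2 or induced replicate 1 or 2, for SEH1H without wild-type water replicate 2 or CPR5-C water replicate 3, for NDC1 without wild-type dexamethasone replicate 3 and for NUP1 without induced replicate 3. After water AT3G16310 gained one without CPR5-C water replicate 1 or induced replicate 3. Over all 480 member results with an array left out, 425 kept direction and side of the threshold, 31 lost a call, 12 gained one and 12 that passed in neither fit changed sign. Beyond what is stated of scaling, the cause of these shifts was not tested.

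Replicate numbers did not pair the samples: deviations from the group means correlated at -0.207 to 0.362 over 18 same-numbered pairs, with 2 over 0.1, against 11 of 36 pairs with different numbers. With the replicate block, calls were lost for NUP85 in CPR5-C plants (adjusted p = 0.0707), NUP1 after water (adjusted p = 0.0734) and NUP107 after dexamethasone (adjusted p = 0.0508), and 10671, 1852, 1352, 10558 and 8487 probe sets were called in the 5 comparisons. The call of NUP85 in CPR5-C plants was also lost with median centring (0.0599), only the groups compared (0.0805), single-gene probe sets (0.0567) and the wild-type water arrays left out (0.0616). NUP98B passed in CPR5-C plants under every alternative except quantile normalization. Filters on dim probes were not run on centred values.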

Other observations

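The loci AT2G30050, from the outer-ring part of the pore list, and AT2G30060, from the Ran cycle list, have neighbouring locus numbers. Both rose in CPR5-C plants after dexamethasone, by 0.74 and 1.81. Their positions were not examined, and a link between the 2 changes was not tested. AT1G10390, listed beside NUP98B among the mobile pore proteins, had a change of 0.11 in CPR5-C plants (SE 0.15, adjusted p = 0.605), against 0.90 for NUP98B; the difference between these 2 genes was not tested.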
